A study of Mus musculus with 12 samples.

Results

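Sulforaphane (SFN), an isothiocyanate released from glucoraphanin of broccoli and related vegetables, was compared with vehicle in B16F10 cells, a transplantable melanoma line of C57BL/6 mouse origin that makes pigment. The comparison used 6 of the 12 RNA-seq libraries of the series, the 3 labelled SFN and the 3 labelled CON, and it covered 11638 of the 24421 genes listed. The other libraries held DAC (5-aza-2'-deoxycytidine, a DNA methyltransferase inhibitor, 25 nM for 72 h) and DAC with SFN; they entered the fit and served for a second look at SFN. All cells attached for 24 h. SFN cells then waited 24 h without drug and received SFN for 48 h. The labels give the single dose as 5 nM, whereas for the combination they name 5 µM, the dose that the study's methods give for SFN, so the amount that these cells received is not settled by the labels. The controls are labelled as DMSO treated, and for control wells of the viability assay the labels name 0.025% DMSO, where the study's methods give a lower percentage, so the amount of vehicle is not settled either. Every library came from this established line, with neither stroma nor immune cells of a tumour. The samples of a group carry the numbers 1 to 3, and the study's methods describe the treatments as repeated independently.

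Electrophiles such as SFN modify cysteines of KEAP1, the adaptor that otherwise sends the transcription factor NRF2 to the proteasome. NRF2 that escapes pairs with small MAF proteins on antioxidant response elements and drives enzymes that make glutathione, conjugate electrophiles, reduce quinones, regenerate thioredoxin and supply NADPH. Isothiocyanates also bind glutathione and other thiols and have been studied as inhibitors of histone deacetylases. Changes in a pool of cells are given per library, so fewer cells with a transcript and less transcript per cell cannot be told apart.

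The libraries held between 19310971 and 27291436 counts, and at that depth 1 CPM (a count per 1e+06 counts of a library) stood for 19.3 to 27.3 counts. Melanocyte markers summed to between 25054 and 31062 CPM in the controls and between 23431 and 31212 CPM with SFN. T cell markers and the keratinocyte keratins Krt5, Krt1 and Krt10 were at 0 in all 6 libraries, as were the macrophage genes Csf1r and Adgre1 and the fibroblast gene Dcn. Fibroblast markers summed to between 20 and 320.5 CPM in the controls and between 19.6 and 250.4 CPM with SFN, mostly through Col1a1. Macrophage markers summed to 4.19 to 5.94 CPM in the controls and to 7.62 to 13.8 CPM with SFN, through the lysosomal protein Cd68 and lysozyme Lyz2.

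SFN moved many genes by small amounts and few genes by large ones, and most of the large changes were increases. At an adjusted p under 0.05 (edgeR quasi-likelihood test with replicate number as a block, Benjamini-Hochberg), 962 genes (8.27%) were higher with SFN and 657 genes (5.65%) were lower. Adding a change of more than 2-fold left 126 genes higher (1.08%) and 23 genes lower (0.198%), and a gene is said to have risen or fallen only where it passed the adjusted p. Levels are CPM scaled by TMM factors, in the order of replicates 1, 2 and 3, and a lone value that a gene is at or changed by is its fitted log2 fold change of SFN over control. The median fold of the called genes was 1.35 upwards and 1.27 downwards. A change of more than 4-fold was reached by 14 of the genes that rose and by 0 of those that fell.

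Large increases lay in scarce transcripts. The 126 genes had a median control level of 1.45 CPM and the 23 genes one of 5.42 CPM, against 36.5 CPM over all genes tested. Among the 330 genes at or under 1 CPM in the controls, 16.7% rose and 0.303% fell, whereas among the 543 genes above 300 CPM, 8.84% rose and 11% fell. At the low end a gene could enter the test through libraries with SFN, so that the split there follows in part from the filter on low values. The plot of level against change shows both features.

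**Figure D1:**
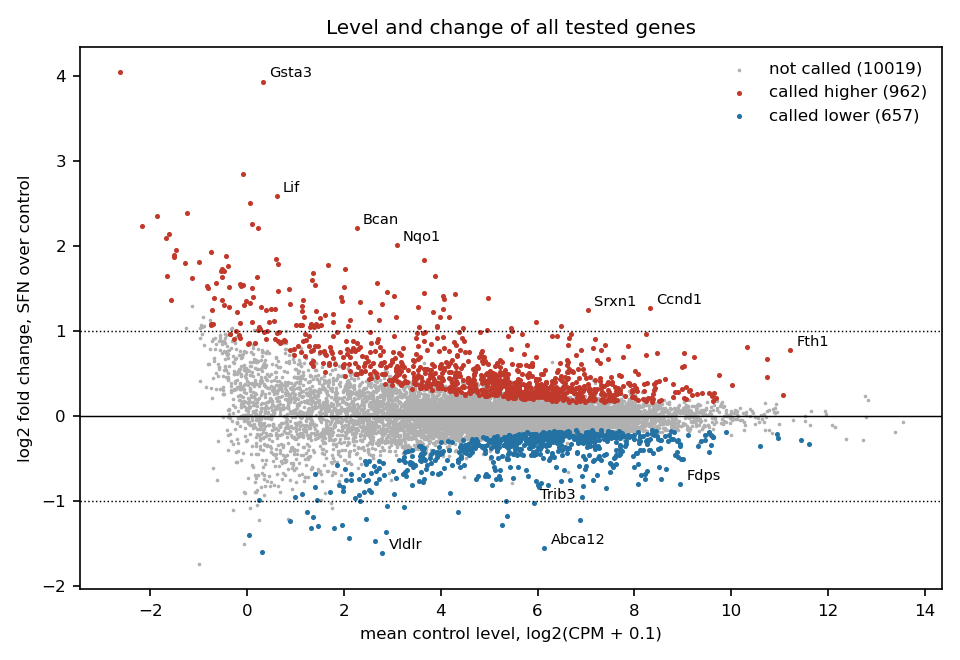
Each point is 1 of 11638 tested genes. The x axis gives the mean control level as log2(CPM + 0.1) and the y axis the fitted log2 fold change of SFN over control, with dotted lines at 2-fold. Red points (962) rose and blue points (657) fell at an adjusted p under 0.05; increases over 2-fold crowd at the left, where transcripts are scarce.

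Among the 126 and 23 genes the direction held from pair to pair, while its size did not. These genes were picked by a test within the same pairs. Agreement in direction and separation of the groups thus follow in large part from that choice. All 126 genes were higher in each of the 3 same-numbered pairs of libraries, and 22 of the 23 were lower in each. The median log2 difference of the 126 genes was 1.33 in pair 1, 1.65 in pair 2 and 0.94 in pair 3, and 81 of them had their smallest difference in pair 3. In 99 of the 126 all SFN libraries stood above all controls, and in 11 of the 23 all stood below, where over all tested genes such a separation was seen upwards for 10.9% and downwards for 9.93%. At the edge of the 2-fold rule, Asap3, Cntn1 and Adam12 lay just inside with log2 fold changes of 1.0, -1.0 and 1.01, and Chac1, Cited1 and Fgf7 just outside with -1.0, 1.0 and 1.0. Without the replicate block, 20 genes rose and 3 fell, so nearly all calls below rest on the comparison within pairs.

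The 250 bases before the start site are shown for 5 genes that stand for the 3 programmes described next, 3 genes that rose and 2 that fell. Sequences are those of RefSeq on GRCm38.p6, read 5' to 3' along the gene's strand, and capitals mark matches to the letters searched on both strands. These letters were TGACNNNGC for the antioxidant response element (ARE), TCACNNCAC for the sterol regulatory element (SRE) and TGATGNAA for the element of ATF4 with C/EBP proteins (CARE). The ARE letters also match part of many AP-1 sites. Gsta3 (chr1:21240335-21240584, plus strand), Gclm (chr3:122245307-122245556, plus strand) and Txnrd1 (chr10:82858956-82859205, plus strand) hold an ARE match, Hmgcs1 (chr13:119690101-119690350, plus strand) an SRE match and Asns (chr6:7693210-7693459, minus strand) a CARE match.
Gsta3: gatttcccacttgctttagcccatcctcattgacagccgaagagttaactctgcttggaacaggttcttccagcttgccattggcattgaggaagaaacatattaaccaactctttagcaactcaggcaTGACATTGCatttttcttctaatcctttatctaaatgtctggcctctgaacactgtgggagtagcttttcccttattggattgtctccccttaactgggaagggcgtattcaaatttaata
Gclm: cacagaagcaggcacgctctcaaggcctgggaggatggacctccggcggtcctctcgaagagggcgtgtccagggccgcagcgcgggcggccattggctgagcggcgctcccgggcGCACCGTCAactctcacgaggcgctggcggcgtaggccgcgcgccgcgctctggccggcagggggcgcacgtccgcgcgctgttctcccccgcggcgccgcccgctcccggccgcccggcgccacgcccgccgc
Txnrd1: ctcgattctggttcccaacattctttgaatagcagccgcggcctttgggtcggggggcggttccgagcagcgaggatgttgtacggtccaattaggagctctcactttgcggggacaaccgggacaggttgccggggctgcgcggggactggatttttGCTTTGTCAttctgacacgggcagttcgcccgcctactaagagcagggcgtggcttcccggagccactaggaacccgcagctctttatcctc
Hmgcs1: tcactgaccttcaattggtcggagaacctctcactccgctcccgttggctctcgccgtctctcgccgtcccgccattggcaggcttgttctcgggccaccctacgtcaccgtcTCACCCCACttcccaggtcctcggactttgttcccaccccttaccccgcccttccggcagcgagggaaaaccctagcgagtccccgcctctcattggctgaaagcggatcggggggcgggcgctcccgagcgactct
Asns: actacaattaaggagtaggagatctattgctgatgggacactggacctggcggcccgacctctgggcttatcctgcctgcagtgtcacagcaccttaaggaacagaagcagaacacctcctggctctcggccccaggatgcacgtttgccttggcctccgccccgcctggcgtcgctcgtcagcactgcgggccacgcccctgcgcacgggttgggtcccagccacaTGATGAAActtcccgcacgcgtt
Of the 11638 genes, 9382 had such a window, and an ARE match lay in that of 13.9% of them. The share was 16.9% among genes that rose, 16% among genes that fell, 27.6% (24 of 87) among the genes over 2-fold higher and 18.9% (7 of 37) among those called higher in the 6 redox lists described first. An SRE match lay in the windows of 3.58% of all genes, 5.52% of genes that fell and 3 of 18 called lower in the cholesterol list. A CARE match lay in the windows of 2.34% of all genes, 3.62% of genes that fell and 3 of 20 called lower in the ATF4 list. The letters were not particular to 1 list, since ARE and CARE matches were each also found for 3 of the 18 cholesterol genes, and ARE and SRE matches for 5 and 2 of the 20 ATF4 genes. Counted over windows, since a gene can have several, 11.6% of all 12036 held ARE letters, 2.92% SRE letters and 1.96% CARE letters. A match is a description of letters, and enhancers outside these windows were not searched.

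Genes of glutathione metabolism rose. Of 17 listed genes of glutathione synthesis and recycling, 15 were tested, 9 rose and 1 fell, with a median log2 fold change of 0.47 against 0.0040 over all genes. The modifier subunit of glutamate-cysteine ligase, Gclm, which sets the efficiency of the first step, read 58.8, 68.1 and 59.8 CPM in control replicates 1, 2 and 3 and 129.9, 169 and 109 CPM with SFN (log2 fold change 1.11 ± 0.10 SE, adjusted p = 1.5e-05). The catalytic subunit Gclc rose less, from 66.1, 79.8 and 62.7 CPM to 90.0, 115 and 90.4 CPM (log2 fold change 0.50 ± 0.06 SE, adjusted p = 7.3e-05). For both subunits every SFN library stood above every control. The cystine importer Slc7a11 rose from 103, 79.6 and 87.5 CPM to 176, 244 and 145 CPM (log2 fold change 1.06 ± 0.16 SE, adjusted p = 0.00053), and Ggt1, which breaks down extracellular glutathione for its amino acids, from 10.3, 15.1 and 12 CPM to 30.2, 53.4 and 22.4 CPM (log2 fold change 1.45 ± 0.17 SE, adjusted p = 8.1e-05). Glutathione reductase Gsr and the synthetase Gss rose by log2 fold changes of 0.47 and 0.50. Opposite to these, Chac1, which degrades glutathione inside the cell and is a target of ATF4, fell from 46.7, 38.2 and 37 CPM to 26.6, 16.3 and 19 CPM (log2 fold change -1.0 ± 0.10 SE, adjusted p = 1.7e-05).

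The transferases that couple glutathione to electrophiles did not move as a family. Of 21 tested, 5 rose, 1 fell and 15 were not called, and the list's median was 0.09. Gsta3 (Entrez gene 14859, GRCm38 chr1:21240589-21265661, plus strand) read 1.47, 1.16 and 0.822 CPM in the controls and 13.6, 27.4 and 13 CPM with SFN (log2 fold change 3.94 ± 0.24 SE, adjusted p = 8.1e-07). Its level was thus scarce in every control and clear in every SFN library, with the highest value in replicate 2. Gstm1, an abundant mu class member, rose from 111, 84.1 and 95.5 CPM to 164, 148 and 145 CPM (log2 fold change 0.66 ± 0.08 SE), and the mitochondrial Gstk1 by 0.66. Another mu class gene, Gstm5, had a log2 fold change of -0.38 (adjusted p = 0.011), a call lost without control replicate 1 (adjusted p = 0.077) or SFN replicate 1 (adjusted p = 0.061). Near-identical members of these classes share sequence, and since reads that aligned to several places were discarded, their levels are uncertain.

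Peroxide and thioredoxin enzymes gave 15 genes called higher and 1 called lower among 26 tested (median 0.27). Sulfiredoxin, Srxn1, which repairs overoxidised peroxiredoxins, led in size among the abundant members, from 111, 166 and 115 CPM to 279.6, 453 and 221 CPM (log2 fold change 1.25 ± 0.13 SE, adjusted p = 2.1e-05). Thioredoxin reductase, Txnrd1, rose from 480.2, 610.2 and 466 CPM to 758, 1164 and 724 CPM (log2 fold change 0.74 ± 0.07 SE, adjusted p = 1.9e-05). Glutathione peroxidase Gpx1 rose from 78.1, 127 and 95.2 CPM to 129, 278 and 179 CPM (log2 fold change 0.92 ± 0.09 SE, adjusted p = 2.3e-05). In these 3 genes the SFN libraries did not overlap the controls, and replicate 2 was the highest with SFN. The secreted superoxide dismutase Sod3 rose by 1.05, peroxiredoxin Prdx6 by 0.49 and thioredoxin itself, Txn1, by 0.33. The number of members called higher depended on single libraries. It was 9 without control replicate 1, 8 without control replicate 2 and 7 without SFN replicate 2. The abundant peroxiredoxin Prdx1 read 1808, 1694 and 1623 CPM and 2242, 2821 and 2037 CPM, with a log2 fold change of 0.46 whose call was lost without replicate 2 of either group (adjusted p up to 0.07). The member called lower, the thioredoxin inhibitor Txnip at -0.45, lost its call in 5 of the 6 fits without 1 library (adjusted p up to 0.13).

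Iron, heme and quinone genes gave 9 of 17 that rose and 2 that fell (median 0.24), and 1 fell without any 1 library other than control replicate 3. The quinone reductase Nqo1 (GRCm38 chr8:107388225-107403206, minus strand), widely used as a readout of NRF2, varied little between replicates, at 7.45, 8.78 and 9.04 CPM in the controls and 33.2, 33.5 and 35.2 CPM with SFN (log2 fold change 2.01 ± 0.14 SE, adjusted p = 1.2e-06). Ferritin heavy chain, Fth1 (GRCm38 chr19:9980598-9985098, plus strand), which stores iron, gained more CPM than any other gene tested, from 2319.7, 2619 and 2200.3 CPM to 3884, 5133 and 3364 CPM (log2 fold change 0.78 ± 0.10 SE, adjusted p = 0.00024). The iron exporter ferroportin, Slc40a1, rose from 17.2, 14.4 and 19.9 CPM to 25.2, 29.4 and 24.6 CPM (log2 fold change 0.63 ± 0.12 SE), so that the genes for storage and for export were both higher in every SFN library. Biliverdin reductase Blvrb rose from 14.7, 15.5 and 13.6 CPM to 44.2, 61.1 and 33.3 CPM (log2 fold change 1.64 ± 0.21 SE). Heme oxygenase Hmox1, which makes biliverdin and is also a classic NRF2 target, read 148, 154 and 134 CPM and 178, 278 and 137 CPM, with a log2 fold change of 0.39 that did not pass (adjusted p = 0.075). Ferritin light chain Ftl1 also did not pass, at 0.23 (adjusted p = 0.06).

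Pentose phosphate and NADPH enzymes moved in both directions, and most were not called. Of 19 tested, 3 rose and 5 fell, and the median was -0.01. The 3 that rose belong to the pentose phosphate pathway in the cytosol. Its entry enzyme G6pdx (GRCm38 chrX:74409483-74429194, minus strand) rose from 165, 200 and 138 CPM to 283, 399 and 231 CPM (log2 fold change 0.84 ± 0.08 SE, adjusted p = 1.9e-05), and transaldolase Taldo1 from 151, 161 and 140.0 CPM to 246, 278 and 194 CPM (log2 fold change 0.65 ± 0.11 SE). The third, Pgd, had a log2 fold change of 0.37 (adjusted p = 0.018), and its call was lost without replicate 1 or 2 of either group, with adjusted p-values up to 0.13. The 5 that fell were the isocitrate dehydrogenases Idh1 and Idh2, the folate enzymes Mthfd2 and Aldh1l2, and the mitochondrial NAD kinase Nadk2. The call of Aldh1l2 was lost without control replicate 1, SFN replicate 1 or SFN replicate 3 (adjusted p up to 0.081). That of Nadk2 was lost without control replicate 2 or 3 or SFN replicate 1 or 2 (adjusted p up to 0.089). Idh1 (GRCm38 chr1:65158616-65186500, minus strand) fell from 161, 122 and 144 CPM to 97.3, 58.9 and 103 CPM (log2 fold change -0.75 ± 0.11 SE, adjusted p = 0.00035), and Idh2 from 340.1, 328 and 329.9 CPM to 280.3, 195 and 272 CPM (log2 fold change -0.43 ± 0.08 SE). Both isocitrate dehydrogenases were lower in every SFN library than in any control. Without SFN replicate 1, the number called lower was 3. Malic enzyme Me1, another NADPH source that NRF2 is known to drive, was at 0.14 (adjusted p = 0.19), and transketolase Tkt at -0.01 (adjusted p = 0.94).

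Among 27 aldehyde and carbonyl enzymes tested of 41 listed, 6 rose and 2 fell (median 0.07). The retinaldehyde dehydrogenase Aldh1a3 rose from 6.3, 6.93 and 5.65 CPM to 18.2, 25.2 and 13.4 CPM (log2 fold change 1.56 ± 0.13 SE) and the alcohol dehydrogenase Adh7, active on retinol, from 12.2, 24.7 and 13.3 CPM to 30.6, 67.4 and 34.2 CPM (log2 fold change 1.38 ± 0.14 SE). Epoxide hydrolase Ephx1 rose from 305, 328 and 279 CPM to 510.2, 593 and 409 CPM (log2 fold change 0.72 ± 0.07 SE). Aldh3a1, which clears lipid aldehydes, had counts of 1, 2 and 1 in the controls and 24, 3 and 61 with SFN, so that replicates 1 and 3 rose from near nothing while replicate 2 hardly moved. The fitted log2 fold change of Aldh3a1 was 4.06, and at such counts its size is not determined. Aldh18a1, which makes a precursor of proline, and Aldh9a1 fell, with log2 fold changes of -0.49 and -0.47.

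Most regulators were not called. Of 15 tested genes of NRF2, KEAP1 and their partners, 3 rose and 0 fell (median 0.01). NRF2 is encoded by Nfe2l2, which had a log2 fold change of -0.15 (adjusted p = 0.15), and Keap1 had one of 0.03 (adjusted p = 0.89). Bach1, a repressor at the same elements, was at -0.15 (adjusted p = 0.12). Trim16, a ubiquitin ligase that binds NRF2 and the autophagy receptor p62, rose from 1.06, 1.46 and 1.85 CPM to 3.25, 6.62 and 5.27 CPM (log2 fold change 1.79 ± 0.24 SE). The p62 gene Sqstm1 was at 0.37 (adjusted p = 0.018) and the small MAF gene Mafk at 0.36 (adjusted p = 0.032), calls that were lost without replicate 1 or 2 of either group and, for Mafk, without SFN replicate 3, with adjusted p-values up to 0.12 and 0.23.

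Chaperones of the heat shock response were mostly not called. Of 30 tested, 5 rose and 2 fell (median -0.01), and the number that rose was 3 without control replicate 2 or SFN replicate 2. The number that fell was 0 without control replicate 1 or SFN replicate 2, 1 without control replicate 2, SFN replicate 1 or SFN replicate 3, and 2 without control replicate 3. The abundant cytosolic chaperone Hsp90aa1 read 2972, 3123 and 2766 CPM in the controls and 2758, 3233 and 2862 CPM with SFN. It did not pass, nor did Hspa8 and Hsph1, at -0.13 and -0.18. The members that rose with the largest changes were small heat shock proteins. Hspb7 rose from 7.59, 5.12 and 24.9 CPM to 32.2, 24.7 and 65.9 CPM (log2 fold change 1.84 ± 0.21 SE), Cryab from 317, 469 and 279 CPM to 502, 867 and 450.1 CPM (log2 fold change 0.75 ± 0.08 SE) and Hspb6 by 0.78. Controls and SFN libraries of these 3 genes overlapped across replicates, while each rose within each pair.

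**Figure D2:**
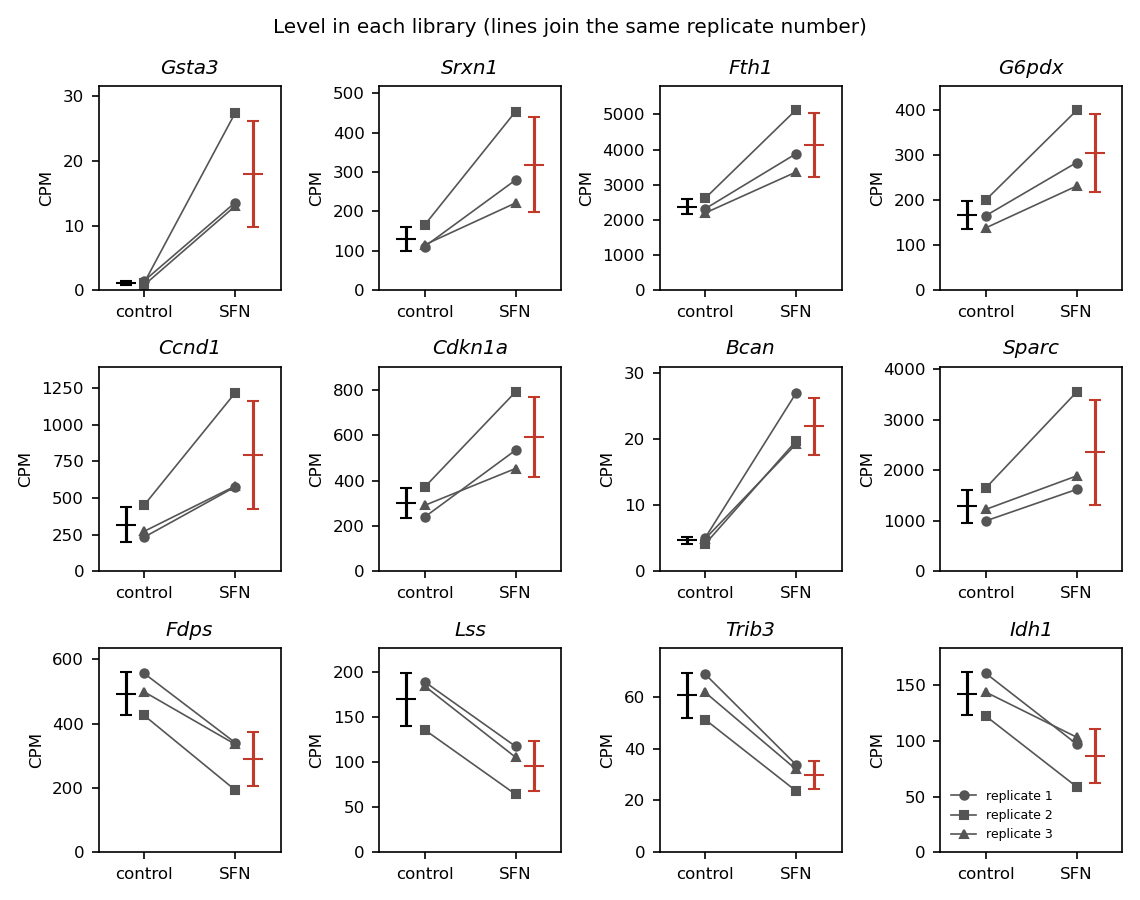
Level of 12 genes in each library, in CPM on a linear axis from 0. Circles, squares and triangles are replicates 1, 2 and 3, lines join the same replicate number in control and SFN, and bars beside the points give mean ± SD (n = 3). Lines of the upper 8 genes all rise and those of Fdps, Lss, Trib3 and Idh1 all fall; in Srxn1, Fth1, G6pdx, Ccnd1, Cdkn1a and Sparc replicate 2 ends highest.

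Of the 36 lists, chosen with earlier results of these data known, that of cholesterol synthesis had the highest share of genes called lower. Cells make cholesterol from acetyl-CoA through mevalonate and squalene, and SREBP2, the product of Srebf2, switches these genes on when sterol in the endoplasmic reticulum is low. Of 36 listed genes, 33 were tested, 26 fell and 1 rose, and the median log2 fold change was -0.58. Medians in pairs 1, 2 and 3 were -0.50, -0.77 and -0.46. The number that fell stayed between 23 and 25 without any 1 control or SFN library, and it was 20 without replicate 2 of all groups.

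The decreases ran from the first committed steps to the last. In the mevalonate part, Hmgcs1 read 343, 232 and 316 CPM in the controls and 209, 119 and 213 CPM with SFN (log2 fold change -0.75 ± 0.09 SE, adjusted p = 8.2e-05). Farnesyl diphosphate synthase, Fdps (GRCm38 chr3:89093588-89101959, minus strand), fell from 556, 425 and 498 CPM to 341, 194 and 336 CPM (log2 fold change -0.80 ± 0.10 SE, adjusted p = 0.00016). No SFN library of Hmgcs1 or Fdps reached the lowest control. Mvk, Pmvk, Mvd and Idi1 fell, with log2 fold changes of -0.64, -0.73, -0.79 and -0.56. From squalene on, lanosterol synthase Lss fell from 189, 136 and 185 CPM to 118, 64.5 and 106 CPM (log2 fold change -0.85 ± 0.07 SE, adjusted p = 8.8e-06) and had the smallest p of the list. Cyp51 fell from 446, 306 and 378 CPM to 284, 152 and 257 CPM (log2 fold change -0.74 ± 0.08 SE) and Nsdhl from 145, 103 and 121 CPM to 86, 48.5 and 77 CPM (log2 fold change -0.83 ± 0.09 SE). Values nearer 0 were seen for late enzymes of the route, with -0.35 for Dhcr7, which makes cholesterol itself, and -0.24 for Ebp (adjusted p = 0.029), whose call was lost without replicate 1 or 2 of either group (adjusted p up to 0.2).

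Genes for sterol uptake and its control fell too. Srebf2 read 272, 245 and 265 CPM and 217, 169.6 and 192 CPM (log2 fold change -0.44 ± 0.06 SE, adjusted p = 0.00033), and Insig1, which holds SREBP in the endoplasmic reticulum and is also its target, 312, 208 and 290.0 CPM and 194, 101 and 182 CPM (log2 fold change -0.80 ± 0.08 SE, adjusted p = 1.9e-05). The lipoprotein receptor gene Vldlr fell over 2-fold, from 8.65, 4.73 and 7.09 CPM to 2.63, 1.35 and 2.74 CPM (log2 fold change -1.62 ± 0.19 SE, adjusted p = 7.3e-05). Another receptor gene, Lrp8, was the member called higher, at 0.32 (adjusted p = 0.023), a call lost without replicate 1 or 2 of either group (adjusted p up to 0.15). Abca1, which exports cholesterol under the control of LXR, had a log2 fold change of 0.19 (adjusted p = 0.11), and the sterol sensor Scap one of 0.09 (adjusted p = 0.46).

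Fatty acid genes followed in part. Of 22 tested, 9 fell and 0 rose (median -0.24). Those that fell were mainly desaturases and suppliers of acyl groups. Scd2 was among the most abundant transcripts of these cells and lost more CPM than any other gene that fell, from 3499, 2706 and 3154 CPM to 2965, 2002 and 2505 CPM (log2 fold change -0.34 ± 0.06 SE). Scd1 fell from 451, 277 and 363 CPM to 303, 175 and 249 CPM (log2 fold change -0.59 ± 0.07 SE), and ATP citrate lyase Acly, which supplies acetyl-CoA to both routes, from 790.0, 713 and 746 CPM to 617, 511 and 547 CPM (log2 fold change -0.43 ± 0.05 SE, adjusted p = 6.9e-05). Fads1 and Fads2 fell, with log2 fold changes of -0.48 and -0.46. Fatty acid synthase Fasn, at -0.23 (adjusted p = 0.073), and the carboxylase Acaca, at -0.12 (adjusted p = 0.31), did not pass. Outside the lists, the lipid transporter Abca12 (GRCm38 chr1:71242276-71414910, minus strand) fell from 102, 34.1 and 75.4 CPM to 35.6, 10.1 and 27.6 CPM (log2 fold change -1.56 ± 0.12 SE, adjusted p = 3.6e-06), and Enpp2, the autotaxin gene, from 158, 71.2 and 121 CPM to 82.3, 19.6 and 62.8 CPM (log2 fold change -1.22 ± 0.14 SE). Controls of Abca12 and Enpp2 were spread widely, with replicate 2 lowest in both groups, and each pair fell.

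The programme of ATF4 and the unfolded protein response was lower with SFN. ATF4 drives amino acid synthesis and transport when amino acids are short or eIF2α is phosphorylated, and XBP1 and ATF6 drive chaperones of the endoplasmic reticulum. Of 36 genes tested, 23 fell and 0 rose, 34 had a fitted change below 0, and the median was -0.25. The count was 13 without control replicate 2, 14 without SFN replicate 2 and 15 without SFN replicate 3, and the medians of pairs 1, 2 and 3 were -0.30, -0.38 and -0.25.

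Targets of ATF4 were among those with the larger changes. The pseudokinase Trib3 (GRCm38 chr2:152337422-152344032, minus strand) fell from 68.6, 51.2 and 61.6 CPM to 33.8, 23.7 and 32 CPM (log2 fold change -1.03 ± 0.07 SE, adjusted p = 8.1e-07), the smallest p of all genes that fell. Atf4 itself read 545, 492 and 507 CPM in the controls and 404, 319 and 365 CPM with SFN (log2 fold change -0.51 ± 0.06 SE, adjusted p = 5e-05), and asparagine synthetase Asns 339, 296 and 288 CPM and 218, 173 and 199 CPM (log2 fold change -0.65 ± 0.06 SE, adjusted p = 1.8e-05). In all 3 of these genes every SFN library was below every control. The serine route fell along its length, with log2 fold changes of -0.42 for Phgdh, -0.37 for Psat1, -0.77 for Psph and -0.62 for Shmt2. Outside the list, the mitochondrial carboxykinase Pck2 fell from 102, 74.3 and 91.3 CPM to 62.9, 40.2 and 56.4 CPM (log2 fold change -0.76 ± 0.07 SE), and within it the stress protein Nupr1 from 29.1, 12.1 and 20.3 CPM to 11.2, 5.27 and 11.5 CPM (log2 fold change -1.13 ± 0.15 SE). Ddit3, which encodes the proapoptotic factor CHOP, and Atf3 had log2 fold changes of -0.23 and -0.04 and did not pass (adjusted p = 0.064 and 0.86).

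Genes that fold or clear proteins in the endoplasmic reticulum fell too. Herpud1, a component of protein degradation at that membrane, fell from 162, 158 and 128 CPM to 104, 86.6 and 85.5 CPM (log2 fold change -0.70 ± 0.06 SE, adjusted p = 8.8e-06), Xbp1 from 181, 167 and 164 CPM to 139, 116 and 120.5 CPM (log2 fold change -0.45 ± 0.07 SE) and Manf, a secreted survival factor, from 192, 236 and 194 CPM to 154, 163 and 158 CPM (log2 fold change -0.38 ± 0.06 SE). The abundant BiP gene Hspa5 read 1907, 2151 and 1909 CPM and 1710.0, 1579 and 1688 CPM (log2 fold change -0.26 ± 0.07 SE, adjusted p = 0.019), and Hsp90b1 2841, 2904 and 2633 CPM and 2427, 2248 and 2236 CPM (log2 fold change -0.28 ± 0.07 SE, adjusted p = 0.013). Groups did not overlap in either gene, yet the calls of Hspa5 and Hsp90b1 were lost without control replicate 1 or 2 or SFN replicate 2 or 3, with adjusted p-values up to 0.16 and 0.097. Proteasome subunits leaned the same way, with 35 of 39 fitted below 0, 6 that fell and 0 that rose (median -0.11). The number that fell was 3 without control replicate 1, SFN replicate 1 or SFN replicate 3, 2 without control replicate 2, 1 without SFN replicate 2 and 0 without replicate 2 of all groups.

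**Figure D3:**
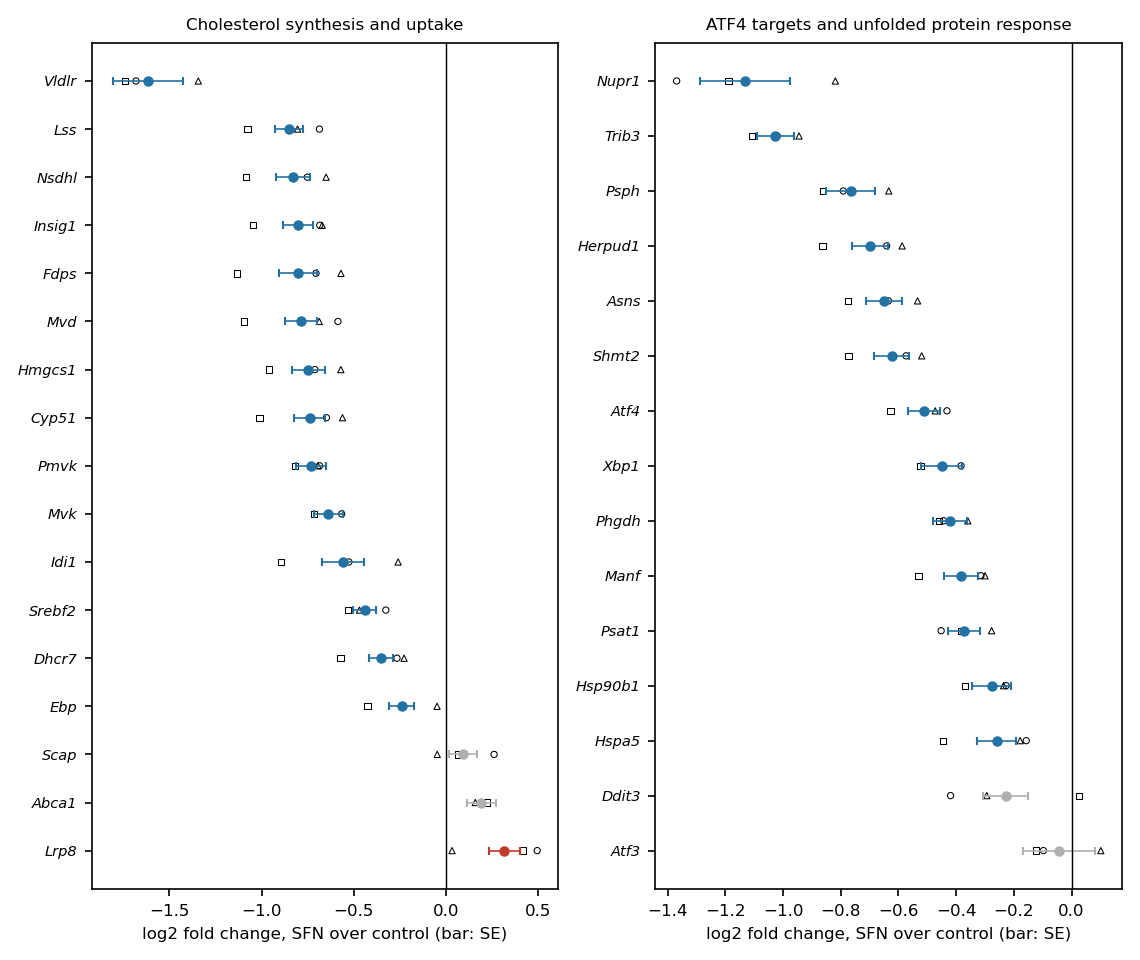
Fitted log2 fold change of SFN over control with its SE for 17 of the 33 tested genes of the cholesterol list (left) and 15 of the 36 of the ATF4 and unfolded protein list (right), those described by name. Blue genes fell (14 and 13), the red gene, Lrp8, rose and grey genes were not called; small open circles, squares and triangles are the log2 differences of pairs 1, 2 and 3. Squares lie farthest left in 14 of the 17 and in 12 of the 15 genes.

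Many genes that ERK signalling switches on as output and feedback rose. Of 32 tested, 15 rose and 1 fell (median 0.34). The medians of pairs 1, 2 and 3 were 0.36, 0.71 and 0.18, and between 11 and 15 genes rose without any 1 library. Cyclin D1, Ccnd1 (GRCm38 chr7:144929931-144939925, minus strand), which pairs with CDK4 and CDK6 in G1, read 233, 452 and 273 CPM in the controls and 575, 1215 and 581 CPM with SFN (log2 fold change 1.27 ± 0.10 SE, adjusted p = 4.4e-06). The ETS factor Etv5 rose from 17.2, 23.8 and 17.2 CPM to 46.4, 73.1 and 41 CPM (log2 fold change 1.44 ± 0.14 SE, adjusted p = 1.7e-05), and its relatives Etv4 and Etv1 by 1.60 and 0.73. The inhibitor Spry4 rose from 5.15, 6.32 and 5.55 CPM to 10.8, 19.2 and 10.7 CPM (log2 fold change 1.23 ± 0.15 SE), and the ERK phosphatase Dusp6 from 115, 117 and 133 CPM to 166, 206 and 167 CPM (log2 fold change 0.55 ± 0.11 SE, adjusted p = 0.0054). In Ccnd1, Etv5, Spry4 and Dusp6 all SFN libraries stood above all controls. Dusp14 and the chromatin protein Hmga2 rose by 1.14 and 0.94. The immediate early gene Egr1 was at -0.36 (adjusted p = 0.53), Phlda1 at 0.08 (adjusted p = 0.57) and Myc at 0.27 (adjusted p = 0.16). The member called lower, Ier3 at -0.64, lost that call in 5 of the 6 fits without 1 control or SFN library (adjusted p up to 0.18). Among 9 AP-1 genes tested, Fosl2 was called higher and Jdp2 lower (median 0.04), and the call of Fosl2 was lost without replicate 1 or 2 of either group (adjusted p up to 0.22).

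Several secreted factors rose. Of 50 listed chemokines and cytokines, 15 passed the filter on low values, 6 rose and 0 fell (median 0.25). The IL-6 family cytokine Lif (GRCm38 chr11:4257557-4272514, plus strand), counted above with ERK output, rose from 0.782, 2.32 and 1.18 CPM to 4.75, 15 and 6.17 CPM (log2 fold change 2.59 ± 0.19 SE, adjusted p = 2.9e-06). Il33, an alarmin counted there too, rose from 4.37, 4.26 and 2.72 CPM to 9.6, 13.4 and 6.5 CPM (log2 fold change 1.35 ± 0.17 SE), and the chemokine Ccl5 from 2.99, 2.15 and 4.16 CPM to 13.7, 8.58 and 9.4 CPM (log2 fold change 1.78 ± 0.21 SE). Csf1, which feeds macrophages, and Tgfb3 rose by 0.57 and 0.56. Cxcl10, at -0.04 (adjusted p = 0.89), did not pass.

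Many targets of p53 rose. Of 40 listed, 34 were tested, 20 rose and 1 fell (median 0.38), and between 16 and 20 rose without any 1 library. The CDK inhibitor gene Cdkn1a (GRCm38 chr17:29090976-29100727, plus strand), which encodes p21, read 239.9, 372 and 291 CPM in the controls and 535, 792 and 454 CPM with SFN (log2 fold change 0.96 ± 0.11 SE, adjusted p = 6.3e-05). Mdm2, which encodes the ligase that degrades p53, rose from 142, 189 and 142 CPM to 238, 371 and 215 CPM (log2 fold change 0.77 ± 0.07 SE, adjusted p = 1.2e-05), and Ccng1 from 482, 635 and 451 CPM to 739.8, 921 and 688 CPM (log2 fold change 0.59 ± 0.07 SE, adjusted p = 7.9e-05). In Cdkn1a, Mdm2 and Ccng1 no SFN library reached down to the highest control. The adenylate kinase Ak1, Btg2, Plk2 and the death receptor gene Tnfrsf10b rose by 1.04, 0.93, 0.77 and 0.70. The proapoptotic gene Bbc3, which encodes PUMA, was at -0.15 (adjusted p = 0.73), Trp53 itself at 0.08 (adjusted p = 0.45), and the repair genes Ddb2 and Xpc at -0.02 and 0.03, none of which passed. The member called lower, Btg1 at -0.37, lost its call without any 1 of the 6 libraries (adjusted p up to 0.16). Some members, Cdkn1a and Dcxr among them, are also known to answer to other factors.

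Of 26 cyclins, CDKs and CDK inhibitors, 3 rose and 4 fell (median -0.03). D cyclins rose, with Ccnd2 from 817, 955 and 818 CPM to 1116, 1488 and 1035 CPM (log2 fold change 0.48 ± 0.07 SE, adjusted p = 0.00038) and Ccnd3 by 0.38, while Cdkn1b, the p27 gene, fell from 83.4, 54.3 and 97.7 CPM to 56.1, 41.2 and 73.4 CPM (log2 fold change -0.46 ± 0.06 SE). Of 54 genes of DNA replication and nucleotide synthesis, 48 had a fitted change below 0, 5 fell and 0 rose (median -0.11). Of 63 genes of mitosis and spindle, 50 had a fitted change below 0, 3 fell and 0 rose (median -0.10). In pair 3 the medians of these lists were -0.0042 and 0.0091. The 5 calls among replication genes were 1 without control replicate 1, 0 without control replicate 2, 2 without SFN replicate 1, 0 without SFN replicate 2 and 8 without control replicate 3. The 3 calls among mitosis genes were 5 without control replicate 3 and 0 without any of the other libraries. Mki67, a proliferation marker, was at -0.10 (adjusted p = 0.41).

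Part of the matrix genes rose, and the list's median difference was largest in pair 2. Of 45 listed collagens, laminins and other matrix genes, 26 were tested, 12 rose and 0 fell (median 0.31), with pair medians of 0.25, 0.81 and 0.05. The number that rose was 7 without control replicate 1, 5 without control replicate 2 and 6 without SFN replicate 2. Sparc (GRCm38 chr11:55394500-55423183, minus strand), a collagen-binding glycoprotein, gained more CPM than any other gene that rose but Fth1, from 999, 1649 and 1227 CPM to 1623, 3550.5 and 1891 CPM (log2 fold change 0.81 ± 0.09 SE, adjusted p = 4.9e-05). Its SFN libraries overlapped the controls, since control replicate 2 lay above SFN replicate 1. The proteoglycan brevican, Bcan (GRCm38 chr3:87987531-88000230, minus strand), known from brain matrix, separated without overlap, at 5.06, 4.13 and 4.93 CPM in the controls and 27, 19.7 and 19.3 CPM with SFN (log2 fold change 2.22 ± 0.15 SE, adjusted p = 1.2e-06). Col7a1 and Col15a1 had log2 fold changes of 1.37 and 0.62, and the call of Col15a1 was lost without control replicate 2 (adjusted p = 0.051). Col1a1, the main collagen of fibroblasts, was at -0.20 (adjusted p = 0.42).

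Proteases and their inhibitors gave 12 of 31 that rose and 1, Adam19, that fell (median 0.20). Adam12 rose from 30.8, 32.9 and 29.5 CPM to 71.7, 72.4 and 46.3 CPM (log2 fold change 1.01 ± 0.12 SE), Adamts14 from 8.74, 24 and 16.2 CPM to 29.6, 70.4 and 31.3 CPM (log2 fold change 1.41 ± 0.16 SE) and the cystatin Cst6 from 22.6, 45.7 and 26 CPM to 59.8, 138 and 56.6 CPM (log2 fold change 1.39 ± 0.13 SE, adjusted p = 1.7e-05). All SFN libraries of these 3 genes exceeded all controls. The gelatinase Mmp2 rose from 3.54, 3.79 and 2.21 CPM to 4.56, 7.45 and 4.82 CPM (log2 fold change 0.81 ± 0.17 SE), and Mmp14, which activates it, was at 0.02 (adjusted p = 0.88).

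Lists of muscle and neural genes held 5 and 8 of the genes over 2-fold higher, most from low levels. Of 51 muscle and calcium genes, 22 were tested, 9 rose and 0 fell (median 0.35). Troponin T, Tnnt2, rose from 0.552, 1.38 and 1.28 CPM to 3.95, 6.92 and 4.05 CPM (log2 fold change 2.22 ± 0.29 SE) and the cGMP-dependent kinase Prkg2 from 0.414, 0.86 and 1.64 CPM to 1.22, 8.66 and 4.78 CPM (log2 fold change 2.26 ± 0.31 SE). The smooth muscle actin Actg2 was at -0.21 and did not pass (adjusted p = 0.74). Of 47 genes of neurons and secretory granules, 19 were tested, 12 rose and 2 fell (median 0.33), Bcan among those that rose. The number that fell was 0 without control replicate 1 or SFN replicate 3 and 1 without control replicate 2, SFN replicate 1 or SFN replicate 2. The lipocalin Apod rose from 0.828, 0.731 and 0.976 CPM to 7.29, 6.44 and 4.66 CPM (log2 fold change 2.86 ± 0.28 SE, adjusted p = 1.7e-05). Cpe, which trims peptide hormones in granules and is abundant here, rose from 418, 666 and 439 CPM to 644, 1009 and 624 CPM (log2 fold change 0.58 ± 0.06 SE, adjusted p = 3.1e-05). Members of the neural and muscle lists were picked with the large changes of these data known. Their counts therefore do not stand for neurons or muscle as such. The other lists too were chosen with earlier results of these data known, so their counts and rank are no independent evidence.

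Genes tied to a dedifferentiated melanoma state gave 6 that rose and 2 that fell among 19 tested (median 0.11), and 2 rose without control replicate 2 or without SFN replicate 2, while 1 fell without control replicate 1 or without any 1 SFN library. Ctgf, a YAP target, rose from 9.94, 13.3 and 14.6 CPM to 13.4, 37.9 and 28.2 CPM (log2 fold change 0.99 ± 0.19 SE). The receptor Axl had a log2 fold change of 0.52 (adjusted p = 0.034), a call lost without replicate 1 or 2 of either group (adjusted p up to 0.21). Of 14 genes of BMP signalling and ID factors, 2 rose and 1 fell (median 0.09). Without control replicate 3 the number that rose was 5. The number called lower was 1 without SFN replicate 3 and 0 in the other fits without 1 library. Bmpr1a, called lower with all libraries, lost that call in each of the 6 fits (adjusted p up to 0.22). The gene called lower without SFN replicate 3 was thus another. Id1, a target of BMP signals, rose from 1.79, 2.67 and 2.93 CPM to 6.26, 9.71 and 7.69 CPM (log2 fold change 1.68 ± 0.24 SE, adjusted p = 0.00033), while Id2 and Id3 were at -0.22 and 0.35 and did not pass. The Notch ligand Jag1 rose from 14.2, 17.3 and 13.7 CPM to 21.5, 42.1 and 24.5 CPM (log2 fold change 0.92 ± 0.11 SE, adjusted p = 8.4e-05), with 4 of 15 Notch genes called higher and 1 called lower (median 0.14). The number higher was 1 without control replicate 1, control replicate 2 or SFN replicate 2, 2 without SFN replicate 1 and 3 without control or SFN replicate 3, and the number lower was 0 without SFN replicate 3.

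Most pigment genes were not called, but the share that fell was above that over all genes. Of 26 tested, 3 rose (11.5%, against 8.27% of all genes) and 7 fell (26.9%, against 5.65%), with a median of -0.03. The number that fell was 2 without control replicate 2 or SFN replicate 2 and 4 without control or SFN replicate 1. The master regulator Mitf was at -0.01 (adjusted p = 0.9), and the pigment enzymes Tyr, Tyrp1 and Dct were at 0.07, -0.07 and -0.01. The channel gene Trpm1, a target of MITF, fell from 179.8, 77.2 and 121 CPM to 140.2, 34.1 and 89.7 CPM (log2 fold change -0.63 ± 0.12 SE), and the receptor Met from 1828, 1299.9 and 1523 CPM to 1576, 885 and 1252 CPM (log2 fold change -0.35 ± 0.07 SE). Cited1 rose from 61.5, 30.4 and 41 CPM to 124, 65.2 and 75.5 CPM (log2 fold change 1.0 ± 0.12 SE).

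Some lysosomal genes rose without the list moving. Of 62 lysosome and autophagy genes tested, 9 rose and 4 fell (median 0.02), and 5 rose without SFN replicate 2. The number that fell was 3 without SFN replicate 1, 2 without control replicate 3 and 1 without any of the other 4 libraries. Those that rose included abundant proteases. Cathepsin D, Ctsd (GRCm38 chr7:142375911-142388038, minus strand), rose from 1719.7, 1846 and 1562 CPM to 2783, 3056 and 2340.3 CPM (log2 fold change 0.67 ± 0.07 SE, adjusted p = 3.6e-05), Ctsb from 534, 756 and 510.4 CPM to 839.7, 1260.4 and 823 CPM (log2 fold change 0.69 ± 0.06 SE, adjusted p = 6.3e-06) and Ctsh from 6.95, 7.27 and 6.27 CPM to 14.5, 23.6 and 13.9 CPM (log2 fold change 1.32 ± 0.13 SE). Lipa, outside the list, frees cholesterol from its esters in lysosomes and rose from 208, 248 and 194 CPM to 333, 419 and 304 CPM (log2 fold change 0.69 ± 0.06 SE, adjusted p = 5.9e-06). Every SFN library exceeded every control in these 4 genes. Expression of the regulators Tfeb and Tfe3 was at -0.28 and 0.03, and subunits of the proton pump such as Atp6v1a, at 0.04, did not pass.

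For 2 lists the pairs disagreed. Interferon-stimulated genes had pair medians of -0.03, 0.11 and -0.57, and of 54 tested 1 rose and 5 fell. Without control replicate 1 or SFN replicate 3 the number that fell was 0, without control replicate 2 or 3 it was 2, and without SFN replicate 1 it was 3. The number that rose was 0 without control replicate 1 or SFN replicate 2 and 4 without SFN replicate 3. Hypoxia and glycolysis genes had pair medians of -0.26, 0.22 and -0.50, and of 49 tested 1 rose and 8 fell. The number that fell was 5 without control replicate 1 or SFN replicate 3, 13 without control replicate 2 and 24 without replicate 2 of all groups. The number that rose was 3 without control replicate 3 and 0 without control replicate 1 or 2 or SFN replicate 1 or 2. Ndrg1, which hypoxia induces, fell in each pair, from 91.3, 51.3 and 79.1 CPM to 48.9, 30.3 and 46.1 CPM (log2 fold change -0.81 ± 0.08 SE, adjusted p = 1.7e-05). Aldoc read 88.5, 26.5 and 81.5 CPM and 50, 16.8 and 41 CPM (log2 fold change -0.83 ± 0.14 SE), with replicate 2 lowest in both groups. Of 13 MHC genes tested, 1 rose and 3 fell (median -0.05), and the number that fell was 1 without SFN replicate 2 or 3 and 2 without control replicate 1 or 2. The class I gene H2-K1 fell from 51, 14.1 and 59.2 CPM to 24.5, 8.88 and 18 CPM (log2 fold change -1.18 ± 0.24 SE), and its close paralogs make that level uncertain.

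Lists tied to the proposed targets of SFN in chromatin and to cell death moved little. Of 18 histone deacetylase genes, 0 were called in either direction by the edgeR test (median 0.01), with Hdac1, Hdac2 and Hdac3 at -0.03, -0.04 and -0.09. At an unadjusted p under 0.05, Hdac7 was higher (0.39) and Hdac8 lower (-0.33), and DESeq2 called 1 of the 18 higher and 0 lower. The edgeR test also called 1 higher without control or SFN replicate 3. Of 26 BCL2 family and caspase genes, 2 rose and 2 fell (median 0.01), and the number that fell was 0 without control replicate 1 and 1 without control replicate 2, SFN replicate 2 or SFN replicate 3. The rise was seen in the survival genes Bcl2l1, from 53.2, 76.5 and 59 CPM to 87.7, 139.7 and 82.4 CPM (log2 fold change 0.69 ± 0.10 SE, adjusted p = 0.00039), and Bcl2, at 0.35, whose call was lost without control replicate 1 or SFN replicate 2 (adjusted p up to 0.099). Of 7 genes of the aryl hydrocarbon receptor pathway tested, 0 were called by edgeR or DESeq2 (median -0.14). At an unadjusted p under 0.05, 0 were higher and 2 lower, and Cyp1a2, Cyp1b1 and Cyp2s1 were under the filter. This short list leaves out Nqo1 and Aldh3a1, which rose and were counted in other lists. The paper's pathway analysis detected aryl hydrocarbon receptor signalling with SFN alone. Of 11 retinoid genes tested, Vdr and Dhrs3 were called higher (median -0.10); the call of Vdr was lost without control replicate 2 (adjusted p = 0.053) and that of Dhrs3 in 5 of the 6 fits without 1 library (adjusted p up to 0.14). Among 15 tubulins, Tuba1a fell from 519, 553 and 432 CPM to 347, 369 and 334 CPM (log2 fold change -0.51 ± 0.06 SE, adjusted p = 9.1e-05) and Tubb6 rose by 0.45, with 3 called higher in all (median 0.02). The number called higher was 2 without control replicate 3 or SFN replicate 2 and 1 without any of the other 4 libraries. Where a list above had 0 genes called in a direction by edgeR, unadjusted p-values under 0.05 in that direction were seen for 0 to 3 of its members, and DESeq2 called 0 except for 1 matrix gene that it called lower and the histone deacetylase gene given above.

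**Figure D4:**
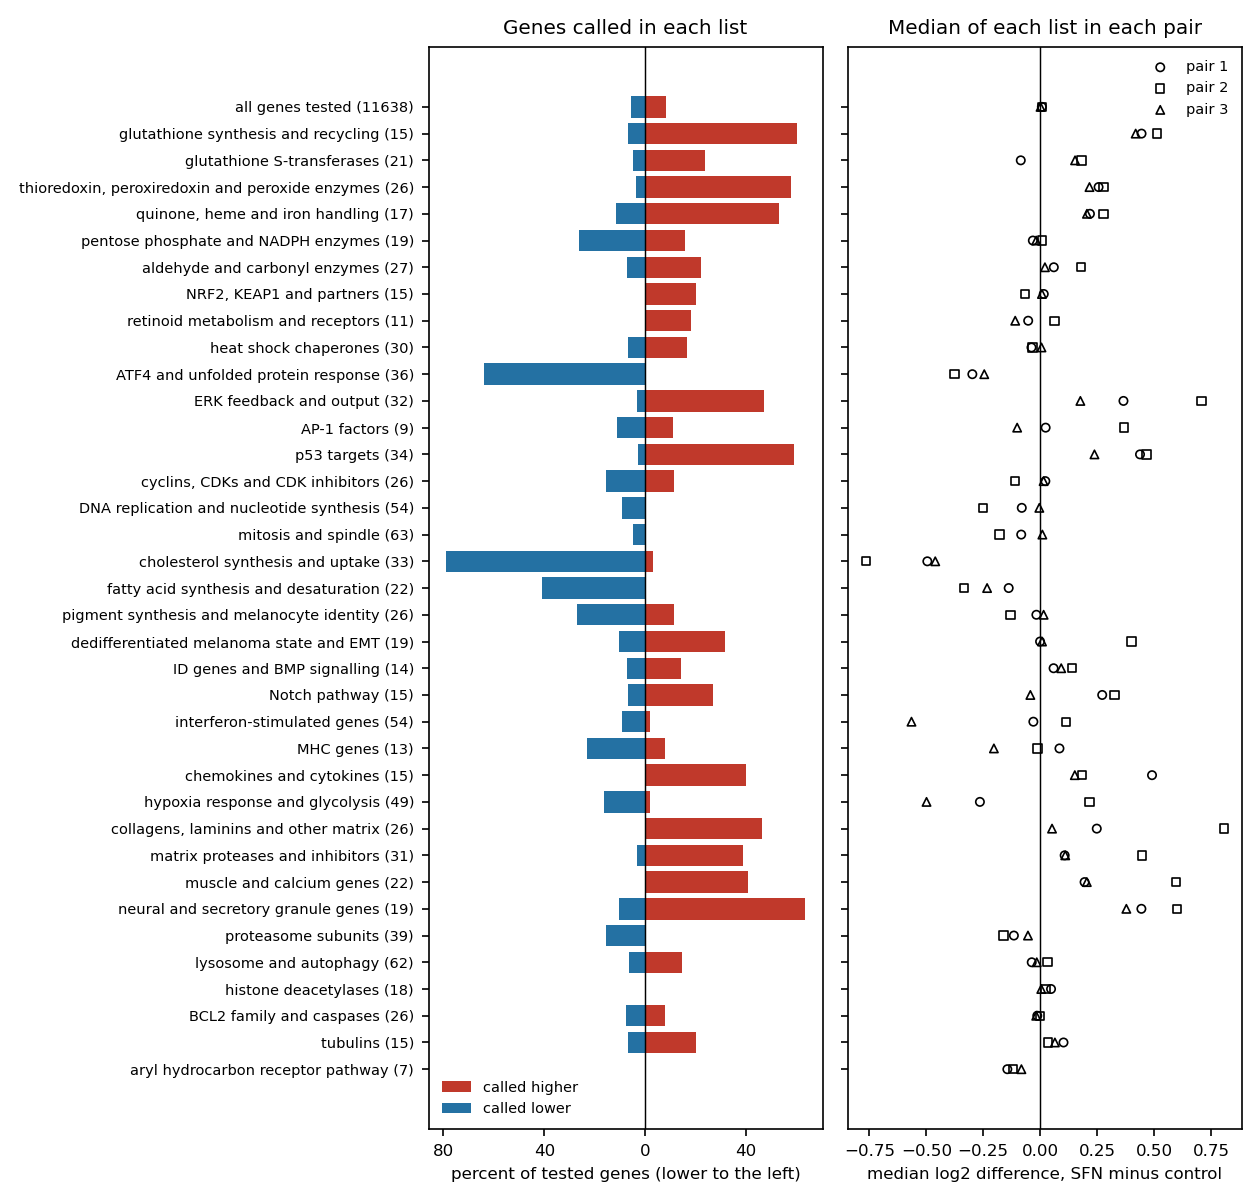
Left, the percent of tested genes in each of 36 lists and in all genes that rose (red, to the right) or fell (blue, to the left), with the number tested in brackets. Right, the median log2 difference of each list in pair 1 (circle), pair 2 (square) and pair 3 (triangle). Cholesterol genes reach 78.8% to the left and neural genes 63.2% to the right, and the symbols spread across 0 for interferon-stimulated and hypoxia genes.

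The SFN change was looked at again by comparing DAC+SFN with DAC, where 1879 genes (16.1%) were called in either direction. These 6 libraries are not among those compared above, but they entered the same fit and share its estimates of spread and replicate, so the comparisons are not fully separate. Without DAC+SFN replicate 3, 2105 genes were called for SFN alone, and without DAC replicate 2, 1480, against 1619 with all libraries. By the labels the SFN dose of the combination is 5 µM. Of the 126 genes, 125 were higher with SFN on top of DAC and 102 passed the test there. Of the 23 genes, all 23 were lower and 18 passed. Of all 962 genes that rose with SFN alone, 942 were higher on DAC and 638 passed, and of the 657 that fell, 634 were lower and 384 passed. No gene called with SFN alone was called the other way on DAC.

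Sizes on DAC were somewhat smaller for the strongest genes. The median log2 fold change of the 126 genes was 1.36 with SFN alone and 1.03 on DAC, and that of the 23 genes was -1.28 and -1.06. Since these genes were picked for being over 2-fold with SFN alone, a lower second value follows in part from that choice. Gsta3 had 3.46 ± 0.22 SE on DAC, Nqo1 2.16 ± 0.14 SE, Srxn1 1.32 ± 0.13 SE, Lss -0.80 ± 0.08 SE and Trib3 -1.03 ± 0.06 SE, all as log2 fold changes. List medians on DAC were 0.43 for glutathione synthesis, -0.49 for cholesterol, -0.30 for ATF4 and the unfolded protein response, 0.43 for ERK output and 0.34 for p53 targets. The difference between SFN changes with and without DAC, tested as an interaction by edgeR, was called for 0 of 11638 genes, as by DESeq2. In edgeR the smallest adjusted p was 0.748, and 683 genes (5.87%) had an unadjusted p under 0.05. That share was 12.1% (18) among the 149 genes over 2-fold with SFN alone, which were picked for that change. Without the filter on low values, 1 gene, D830031N03Rik, was called. Txn1, at 0.33 with SFN alone and 0.07 ± 0.05 SE on DAC, and Met, at -0.35 and -0.13 ± 0.07 SE, passed in the first comparison and not in the second, and for neither was the difference called.

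**Figure D5:**
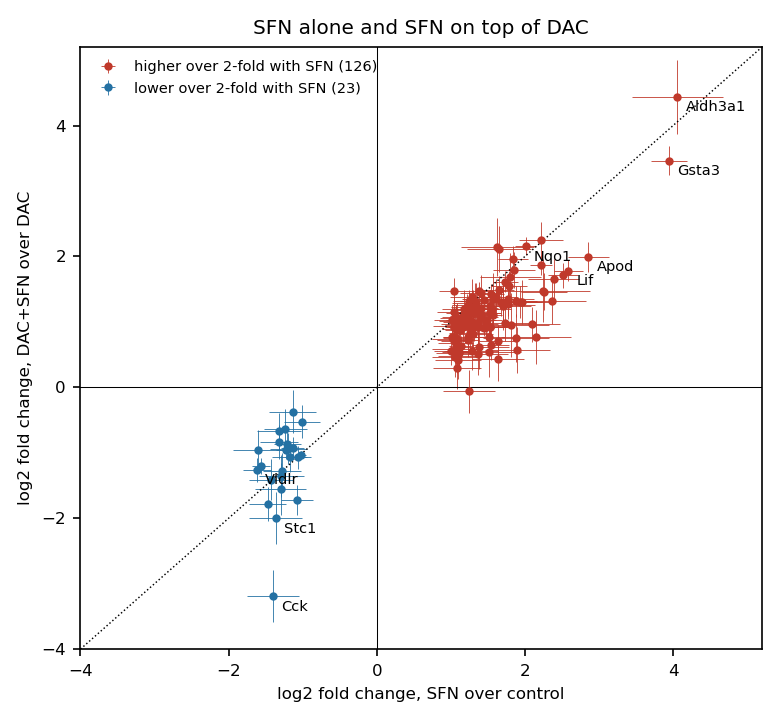
Log2 fold change with its SE for the 126 genes over 2-fold higher (red) and the 23 over 2-fold lower (blue) with SFN alone. The x axis gives SFN over control and the y axis DAC+SFN over DAC, and the dotted line marks equality; 125 of the red and all 23 blue points keep their sign.

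The 53 genes that the study drew in its SFN heatmap were all called here, 48 higher and 5 lower. As that list was chosen on these samples, its direction is no independent evidence.

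The 20 largest increases and 20 largest decreases, among called genes that moved the same way in each pair and reached 1 CPM in the higher group, hold genes not yet described. Log2 fold changes of the 20 increases ran from 1.78 (Ccl5) to 4.06 (Aldh3a1), and those of the 20 decreases from -1.03 (Trib3) to -1.62 (Vldlr). Ptchd1, a membrane protein gene related to Patched, rose from 0.506, 1.38 and 0.924 CPM to 4, 7.19 and 4.82 CPM (log2 fold change 2.51 ± 0.20 SE, adjusted p = 5.2e-06). Angpt4, a ligand of the receptor TIE2, rose from 0.23, 0.387 and 0.36 CPM to 0.8, 3.12 and 1.31 CPM (log2 fold change 2.39 ± 0.35 SE). The neuronal pentraxin Nptx1 rose from 0.138, 0.387 and 0.154 CPM to 1.27, 1.13 and 0.695 CPM (log2 fold change 2.15 ± 0.47 SE) and the growth factor Fgf18 from 0.138, 0.387 and 0.257 CPM to 0.8, 1.35 and 0.94 CPM (log2 fold change 1.96 ± 0.38 SE). In these 4 genes all SFN libraries lay above all controls, none of which exceeded 2 CPM. They were picked for the size of their increase in the same libraries. Scarce genes could also pass the filter through libraries with SFN, so the separation follows in part from these choices. Baalc and Lims2 rose by 1.93 and 1.85, and Greb1, known as an oestrogen target, by 1.88. Lfng, which glycosylates Notch, was at 1.82, a call lost without any 1 library (adjusted p up to 0.11), and Robo3, an axon guidance receptor, at 1.80, lost without replicate 2 of either group (adjusted p up to 0.1).

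Among the 20 decreases, the glycogen phosphatase subunit Ppp1r3b fell from 3.54, 1.76 and 4.83 CPM to 1.36, 1.05 and 1.47 CPM (log2 fold change -1.32 ± 0.26 SE) and Glipr2 from 8.05, 5.59 and 8.37 CPM to 3.11, 3.42 and 3.84 CPM (log2 fold change -1.06 ± 0.18 SE). Selenbp1, a methanethiol oxidase, fell from 44.4, 12.6 and 57.7 CPM to 20.2, 8.09 and 15.1 CPM (log2 fold change -1.28 ± 0.26 SE). Its groups overlapped because replicate 2 was low in both. The prostacyclin receptor gene Ptgir was at -1.60, a call lost without SFN replicate 1 (adjusted p = 0.059). The imprinted transcript H19 read 1.7, 0.215 and 10.7 CPM and 0.612, 0 and 4.29 CPM (log2 fold change -1.43 ± 0.30 SE), so that only the fall within each pair carries the call, whose size rests on few counts and which was lost without SFN replicate 3 (adjusted p = 0.074). Map3k7cl, Smtnl2, Sgk2, Atp2b4 and Pcdhga4 were between -1.32 and -1.14, and each lost its call without at least 1 library. Gm973, Cml3 and Mgarp fell, with -1.21, -1.19 and -1.08.

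By size of the p, Fam212b also stood out, from 15.6, 22.1 and 16.2 CPM to 35.1, 53.1 and 33.4 CPM (log2 fold change 1.16 ± 0.09 SE, adjusted p = 3.6e-06), and the kinase gene Dstyk, from 208, 137 and 199.5 CPM to 138, 77.7 and 135 CPM (log2 fold change -0.66 ± 0.06 SE, adjusted p = 1.9e-05). By CPM lost, glycyl-tRNA synthetase Gars, which ATF4 is known to drive with other synthetases, fell from 800.2, 788 and 716 CPM to 629.7, 594 and 599.7 CPM (log2 fold change -0.34 ± 0.05 SE, adjusted p = 0.00091), the groups not overlapping. The cytoskeletal actin Actg1, at 0.25, and the chaperone calreticulin, Calr, at -0.22, lost their calls without control replicate 1 or 2 or SFN replicate 2 or 3 (adjusted p up to 0.11 and 0.15).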

How the data were processed

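Poly(A) RNA of B16F10 cells was sequenced from stranded TruSeq libraries (single end, NextSeq 500) in 12 samples, 3 per group by their labels. The authors trimmed reads (FastQC 0.11.7, Trimmomatic 0.38), aligned them to mm10 with TopHat 2.1.1 and counted uniquely aligned reads per known gene with HTSeq inside Blast2GO. They deposited raw whole-number counts for 24421 gene symbols. The annotation and the strand setting of the counting are not given in the sources used here, so overlapping and antisense genes may share reads.

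Counts were tested with the quasi-likelihood test of edgeR 4.0.16 (R 4.3.3, limma 3.58.1) over all 12 libraries, with group and replicate number as terms, TMM factors, and genes of at least 1 CPM in at least 3 libraries. A call is a Benjamini-Hochberg adjusted p under 0.05 over all 11638 genes; SE is the log2 fold change over the root of F. Pair differences used a prior count of 2. Replicate numbers pair the control and SFN samples by the data: deviations from group means of same-numbered libraries correlated at 0.487, 0.58 and 0.522. Over all 18 same-numbered pairs the correlation was 0.27 or more, and different-numbered pairs reached 0.282. That value, for DAC replicate 1 with DAC+SFN replicate 3, exceeded the 0.276 of DAC and DAC+SFN replicates 1, so pairing was less clear there. Library numbers follow the replicate numbers, so a processing batch and the replicate cannot be told apart.

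The text names, in each direction, the 20 largest folds, the 10 largest CPM differences and the 10 smallest p-values, the members of the gene lists and the genes of the study's heatmap; Hmga2, Gpx1 and others enter through the lists. Some members of the lists are counted but not reported by name here. Members and lists were chosen with earlier results of these data known. Promoters came from RefSeq (GRCm38.p6, 9382 of 11638 genes matched by symbol), plots from matplotlib 3.10.9, and DESeq2 1.42.0 was one of the alternatives.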

Additional observations from a re-analysis of the deposited data

How the results depend on the processing

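Replicate number carried most of the power. Without the replicate block, 20 genes were called higher and 3 lower, 12 and 1 of them over 2-fold, and 8 in place of 120 genes were changed the same way on DAC. Testing for a change beyond 2-fold itself (glmTreat) called 6 genes higher (Apod, Bcan, Gsta3, Lif, Nqo1 and Ptchd1) and 1 lower (Abca12). Leaving out 1 control or SFN library gave between 435 and 846 genes higher and between 291 and 617 lower. The counts higher and lower were 538 and 331 without control replicate 1, 454 and 311 without control replicate 2, 639 and 374 without SFN replicate 1, 435 and 291 without SFN replicate 2, and 656 and 355 without SFN replicate 3. Over 2-fold, 80 genes were higher without control replicate 2 and 81 without SFN replicate 2, with a range of 80 to 153 higher and 17 to 29 lower. Changes the same way on DAC numbered between 86 and 138 without any 1 of the 12 libraries. Leaving out replicate 2 of all groups, an alternative chosen after seeing the data because pair 2 had the largest differences, gave 222 genes higher and 207 lower, 51 over 2-fold higher and 62 changed the same way on DAC. DESeq2 gave 916 and 702, edgeR on control and SFN libraries alone 1083 and 831, RLE factors 945 and 706, plain library sizes 941 and 702, no filter 1035 and 791, and a minimum of 10 counts 901 and 700. Without the filter, the SFN change differed with DAC for 1 gene, D830031N03Rik, in place of 0. Of the 345 genes followed, 195 kept their call in every other setting than the fit without the block and the added one, 148 lost it without at least 1 control or SFN library, and none changed sign. At 19.3 counts per CPM in the shallowest library, folds of genes under 1 CPM rest on few counts.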
